A study of Mus musculus with 12 samples.

Results

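The Hist1h genes of mouse chromosome 13 encode replication-dependent histones, the linker histone H1 and the core histones H2A, H2B, H3 and H4. The regions described here are those of the H3K27ac and H3K27me3 tables that overlap a gene of the GENCODE vM21 annotation with a symbol starting with Hist1h, extended by 5 kb on each side. This gave 11 of 31617 H3K27ac regions and 8 of 28047 H3K27me3 regions, over 56 annotated genes, 54 of them protein-coding. The regions themselves were called from the reads, and the locus was selected on the known rise of H3K27me3 with age over Hist1h4k, Hist1h2ak and Hist1h2bn. Mesenchymal stem cells (MSCs) from young mice (3-5 months) and old mice (18-22 months), all grown at 2% O2, were profiled by CUT&RUN, in which an antibody tethers a nuclease that releases the DNA around a histone mark. Each mark and age had 3 libraries, 12 in all, and each cell preparation was divided between the H3K27ac and the H3K27me3 antibody. The labels do not say whether the 3 replicates of an age came from separate mice, so p-values measure only the spread between these libraries. The comparison of ages asks whether either mark at the histone genes differed between young and old cells.

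Replication-dependent histone mRNAs are made mainly while DNA is copied, in nuclear bodies that gather at the gene clusters. They have no poly(A) tail and instead end in a short stem-loop that binds the protein SLBP. H3K27ac marks active promoters and enhancers, whereas H3K27me3 is deposited by Polycomb complexes at silent genes. Because most core histone genes are near-identical to others of their class, a short read from their coding sequences often matches several of them. This limits how far reads can be placed here.

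Mapped reads ranged from 2750953 to 5541429 in the H3K27ac libraries and from 3622108 to 9947515 in the H3K27me3 libraries, and old replicate 2 was the shallowest for both marks. A histone region held 11 to 179 reads in an H3K27ac library and 3 to 3069 reads in an H3K27me3 library, so counting error was large for the smaller regions. Values below are scaled signal, that is, reads per 1000000 mapped reads and per 0.5 kb, further scaled so that the typical region has the same signal in every library. The 0.5 kb is a constant, so the scaled signal of a long region is higher because it holds more reads. Start sites of 8 of 8 MSC marker genes, with Prrx1 the highest per length, lay in H3K27ac regions, against 2 of 6 blood and macrophage markers (Cd68 and Csf1r) and 1 of 4 endothelial markers (Pecam1). No region over these markers passed the test of age for H3K27ac, and their part in the results below was not tested.

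The stem-loop sequence is shown first because few coding genes outside the histone clusters held it. In the 150 bases after the stop codon, 51 of 54 coding Hist1h genes (94.4%) held 6 bases starting with GG, 4 loop bases starting with TTT, and 6 bases that pair with the first 6. The 3 without an exact match were Hist1h2an, Hist1h3g and Hist1h4a. The same search found it in 6 of 22420 other coding genes (0.0268%), among them the histone genes H2afx and H2bfm. The genes of the other histone clusters (Hist2h, Hist3h and Hist4h) were left out of that count, so the stem-loop is not shown to be particular to Hist1h genes. Capitals mark the 16 bases of the match, read 5′ to 3′ on the gene's strand of GRCm38.p6, at chr13:21750150-21750165 (Hist1h4k), chr13:21754533-21754548 (Hist1h2bn), chr13:23683477-23683492 (Hist1h2ac) and chr13:23933730-23933745 (Hist1h2ba).
Hist1h4k: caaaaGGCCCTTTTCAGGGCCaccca
Hist1h2bn: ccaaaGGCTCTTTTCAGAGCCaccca
Hist1h2ac: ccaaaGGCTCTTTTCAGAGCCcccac
Hist1h2ba: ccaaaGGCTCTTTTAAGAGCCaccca
The form in Hist1h2bn and Hist1h2ac was found in 33 genes, that in Hist1h2ba in 8 and that in Hist1h4k in 7.

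H2A and H2B genes stood back to back in 12 pairs, with 175 to 305 bases between the annotated genes (median 258.5), and in 9 pairs both starts lay in the same H3K27ac region. In the 250 bases before the start, given by RefSeq for 51 of the 56 genes and counted for the first listed promoter of each, CCAAT occurred on either strand in 43 (84.3%), against 34.5% of all 27025 RefSeq promoters of that length. TATAAA occurred in 26 (51.0%, against 12.97%) and ATTTGCAT, the octamer bound by Oct1, in 10 (19.6%, against 1.61%). The octamer was found in 5 of 13 H2A and 5 of 14 H2B promoters and in no H1, H3 or H4 promoter. Hist1h2be alone had a further promoter listed (chr13:23585971-23586220), which held the octamer and was not counted. CCAAT was in every H1, H2A, H2B and H3 promoter searched but in 3 of 11 H4 promoters. These matches are descriptions of the letters only. The promoters shown belong to genes under the regions that differed most between ages. Hist1h4k (chr13:21750554-21750803) and the 163 bases between the starts of Hist1h2ak and Hist1h2bn (chr13:21753913-21754075, plus strand) lay in the H3K27me3 region with the largest change, and Hist1h2ac (chr13:23683960-23684209) lay in the H3K27ac region with the most negative one. Sequences are from RefSeq, build GRCm38.p6, with the motifs in capitals.
Hist1h4k: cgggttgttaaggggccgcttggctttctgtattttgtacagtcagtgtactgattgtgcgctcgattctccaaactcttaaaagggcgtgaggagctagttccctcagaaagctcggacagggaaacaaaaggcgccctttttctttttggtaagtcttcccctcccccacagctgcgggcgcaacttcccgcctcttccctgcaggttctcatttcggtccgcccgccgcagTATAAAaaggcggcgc
Hist1h2ak/Hist1h2bn: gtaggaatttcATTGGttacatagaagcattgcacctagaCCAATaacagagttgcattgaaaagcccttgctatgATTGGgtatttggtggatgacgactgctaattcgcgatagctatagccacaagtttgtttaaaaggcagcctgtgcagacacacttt
Hist1h2ac: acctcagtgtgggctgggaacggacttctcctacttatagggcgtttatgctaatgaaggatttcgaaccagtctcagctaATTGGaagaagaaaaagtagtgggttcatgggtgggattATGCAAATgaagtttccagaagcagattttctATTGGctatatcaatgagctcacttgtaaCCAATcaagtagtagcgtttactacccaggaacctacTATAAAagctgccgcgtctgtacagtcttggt

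The genes lay in 3 groups. The first held 19 genes over 122 kb (chr13:21715763-21837530), the second 5 genes over 8.51 kb (chr13:22035164-22043676) and the third 29 genes over 233 kb (chr13:23531050-23764406). Hist1h2ba and Hist1h2aa, the testis histone pair, lay beyond the third group, and the pseudogene Hist1h2al lay far from all others, near 51.2 Mb at chr13:51202727-51203065. H3K27ac covered the start of 44 of 56 genes (78.6%), against 52.4% of all 21840 protein-coding genes. H3K27me3 covered the start of 6 genes, while it covered 29.2% of all protein-coding genes. By class, H3K27ac covered 5 of 6 H1, 11 of 15 H2A, 12 of 15 H2B, 8 of 9 H3 and 8 of 11 H4 genes. The 3 genes with both marks at their start were Hist1h4k, Hist1h2ak and Hist1h2bn. The testis pair and the pseudogene were covered by H3K27me3 alone. The start lay in no region for 9 genes, among them Hist1h1t, the testis H1, whose 3′ part lay in an H3K27ac region, Hist1h4j and Hist1h3e.

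**Figure D1:**
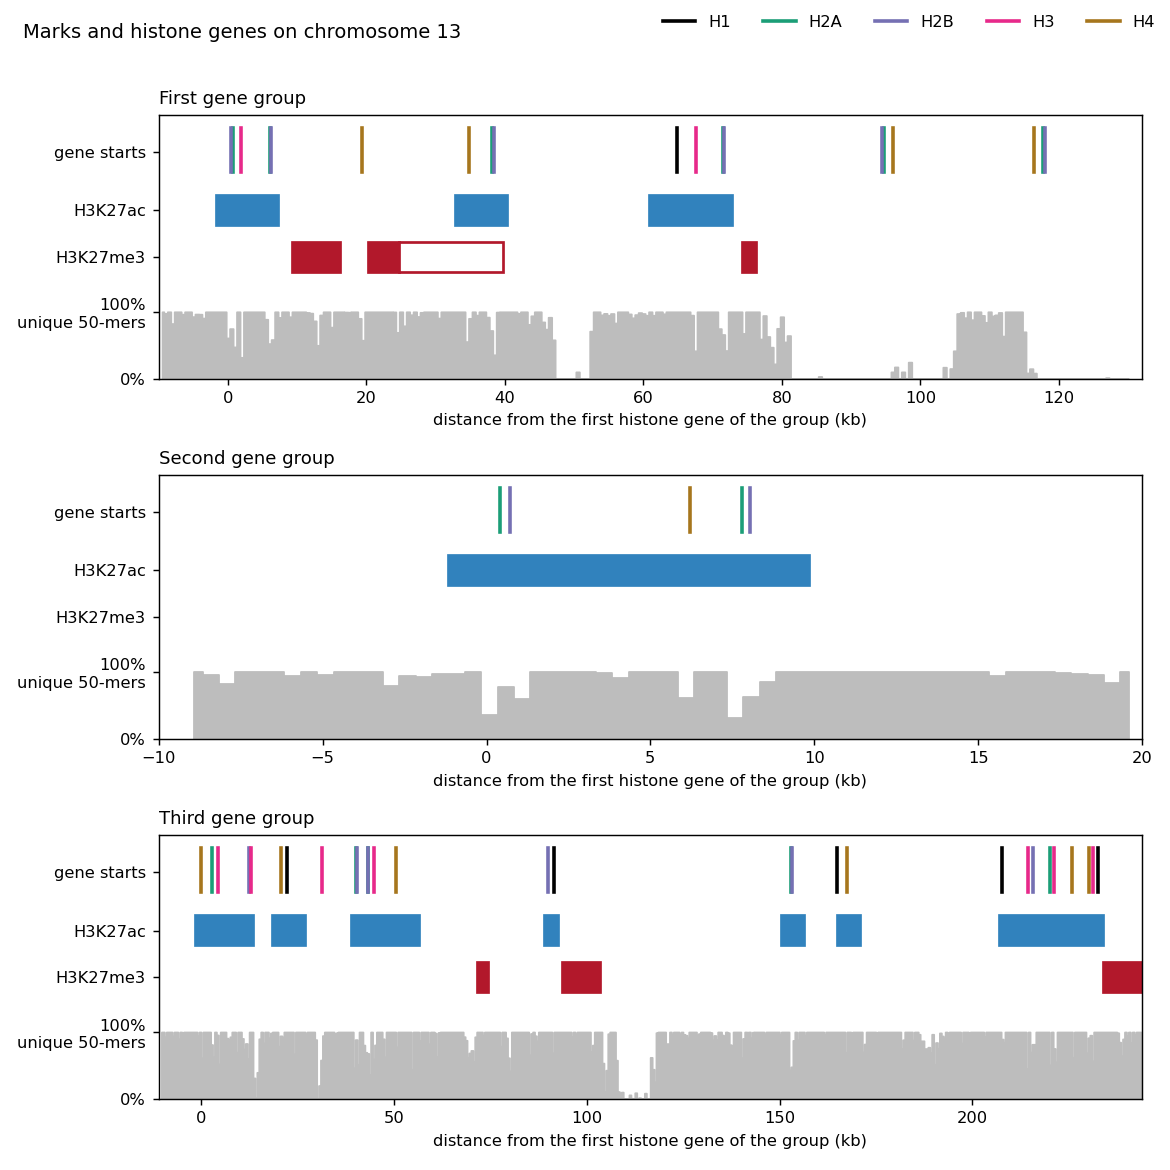
Map of the 3 gene groups, each panel by distance in kb from the first gene of its group. Coloured ticks mark gene starts by histone class, blue bars H3K27ac regions, red bars H3K27me3 regions (open where the table lists the region for old cells alone), and grey the share of 50-mers in each 500-base bin found at a single place in the genome. H3K27ac bars sit over most gene starts and H3K27me3 bars mostly between them, and 6 genes at the right end of the first group have neither mark and almost no unique sequence.

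The other 6 uncovered genes, Hist1h2bq, Hist1h2ao, Hist1h4m, Hist1h4n, Hist1h2ap and Hist1h2br, formed an unbroken stretch of 30.9 kb (chr13:21806612-21837530). Hist1h2bq, Hist1h2ao, Hist1h2ap and Hist1h2br held no 50-mer that was found at a single place in the genome (0%), and Hist1h4m and Hist1h4n held 8.96% and 9.53%. Coding sequences were identical (100%) in 3 pairs, all within this stretch, which were Hist1h2ao with Hist1h2ap, Hist1h2bq with Hist1h2br, and Hist1h4m with Hist1h4n. The stretch between the starts of Hist1h2bq and Hist1h2ao (chr13:21810200-21810366, 167 bases, minus strand) was found whole within that between Hist1h2ap and Hist1h2br (chr13:21833476-21833742, 267 bases, plus strand), as the sequences show with CCAAT in capitals.
Hist1h2bq/Hist1h2ao: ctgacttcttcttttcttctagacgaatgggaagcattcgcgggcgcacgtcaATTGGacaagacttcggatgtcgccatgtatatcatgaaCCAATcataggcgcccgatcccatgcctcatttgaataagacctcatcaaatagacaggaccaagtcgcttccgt
Hist1h2ap/Hist1h2br: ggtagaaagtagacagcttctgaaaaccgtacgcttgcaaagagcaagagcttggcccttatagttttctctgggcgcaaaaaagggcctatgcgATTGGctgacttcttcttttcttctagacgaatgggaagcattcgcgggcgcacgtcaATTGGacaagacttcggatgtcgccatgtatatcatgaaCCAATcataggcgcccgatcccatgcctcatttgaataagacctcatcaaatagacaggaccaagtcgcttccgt
Of the whole stretch, 33.5% of 50-mers were unique. They lay mostly in 10 kb between the genes (chr13:21821001-21831000) that was 93.8% unique and also held 0 regions of either mark. At the 6 genes themselves, a lack of regions cannot be told apart from a lack of reads that could be placed.

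Across all 56 genes the median share of unique 50-mers was 53.2%, from 0% to 100%. The H1 genes, whose coding sequences had a median identity of 71.1%, were 91.7% to 100% unique. The core histone genes, with median identities of 94.4% (H2B) to 97.9% (H2A), had medians of 30.1% (H2A), 54.2% (H2B), 48.7% (H3) and 63.3% (H4). The regions as a whole, which also hold the bases between genes, were more unique than the genes. The H3K27ac regions of the locus were 84.1% to 97.4% unique (median 90.0%), and the H3K27me3 regions 91.9% to 99.3% (median 95.5%). For comparison, the median over every 300th region of the tables, of which at most the middle 5 kb was searched, was 99.7% for H3K27ac and 99.2% for H3K27me3. With all 50-mers pooled, the H3K27ac regions of the locus were 90.5% unique, against 98.1% in the comparison. The H3K27me3 regions of the locus were 97.2% unique, against 95.9%, so for that mark the order depended on the measure.

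**Figure D2:**
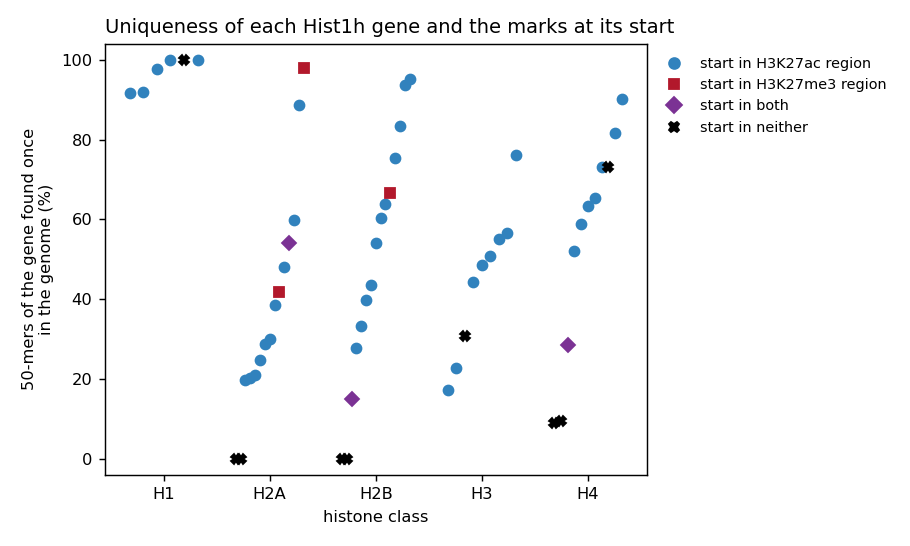
Share of 50-mers of each gene found at a single place in the genome (y axis, percent) by histone class (x axis), 1 point a gene, with the symbol giving the mark at its start. H1 genes lie above 91%, H2A and H2B genes reach down to 0%, and 6 of the 9 genes with their start in neither mark lie below 10%.

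H3K27ac at the histone genes was at the level of a typical region. It did not pass the test of age in any of the 11 regions (limma, adjusted p 0.264 to 0.996). On the log2 scale 8 of 11 were lower in old cells, against 15935 of all 31617 H3K27ac regions. Per length, the regions held 0.791 to 1.44 reads per kb and 1000000 mapped reads (median 1.11), from percentile 8.06 to 84.3 of all H3K27ac regions. In 4 of the 11, every old library was below every young library, an order found in 7.42% of all H3K27ac regions, and in none did all old libraries lie above the young (7.09% of all). With the signal as deposited, without the further scaling, this held for 1 of 11 (9.92% of all regions), and the median of all regions moved from -0.003 to -0.12. In such bulk libraries, a mark that is lower in every cell and a mark that is missing from some cells cannot be told apart. The median log2 fold change of old over young was -0.25 for the 11 regions and -0.003 over all regions. Over the table, 0.0822% of H3K27ac regions passed the test (26 of 31617, 10 of them higher in old), and 3 of the 11 had an unadjusted p under 0.05, as did 9.6% of all regions. The quasi-likelihood test of edgeR on the recovered reads called 0 of the 11 and 96 regions of the table (0.304%).

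The region over Hist1h2ac and Hist1h2bc (chr13:23681501-23687500), an H2A and H2B pair of the third group, had the most negative change. Its scaled signal was 16.7, 20.2 and 16.1 in the young libraries and 12.4, 10.2 and 13.8 in the old. The groups did not overlap, with a mean of 17.7 ± 2.22 in young and 12.1 ± 1.78 in old cells (SD, n = 3). On the log2 scale it fell by 0.53 (SE 0.22), short of the threshold (limma, adjusted p = 0.408).

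The region from Hist1h2ae to Hist1h2be (chr13:23570001-23587500) held 7 genes of H2A, H2B, H3 and H4. Its scaled signal was 52.3, 39.2 and 48.3 in young and 31.5, 34.6 and 36.7 in old libraries. Every old library was below every young one, and the log2 fold change of -0.43 (SE 0.14) had the lowest adjusted p of the locus for this mark (limma, adjusted p = 0.264). The next region, over Hist1h2be and Hist1h1e, an H1 gene (chr13:23620001-23623500), had overlapping values, with 11.01 ± 3.56 in young and 9.20 ± 0.858 in old cells (SD, n = 3).

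The region over Hist1h1b, Hist1h3i, Hist1h2an and Hist1h2bp (chr13:21776501-21788500) had scaled signals of 31.4, 32.9 and 29.3 in young and 16.7, 25.9 and 28.5 in old libraries. Old replicate 1 was far below the others and old replicate 3 was just below the lowest young library. The change of -0.42 on the log2 scale (SE 0.18) did not pass the test (adjusted p = 0.436 in limma) and was -0.19 without old replicate 1. The region over Hist1h4k, Hist1h2ak and Hist1h2bn (chr13:21748501-21756000) had 16.01, 11.5 and 11.8 in young and 10.4, 10.2 and 10.2 in old libraries. These groups did not overlap, but young replicates 2 and 3 were close to the old libraries, and the log2 fold change of -0.33 (SE 0.24) did not pass the test (limma, adjusted p = 0.705) and was -0.18 without young replicate 1.

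In the other 7 regions the ages overlapped. The largest, over the 9 genes from Hist1h1c to Hist1h1a, with H1, H2A, H2B, H3 and H4 genes among them (chr13:23738001-23765000, 27 kb), had 58.5, 59.4 and 53.9 in young and 60.6, 55.8 and 71.3 in old libraries. Its change on the log2 scale was 0.12 (SE 0.12), with old replicate 3 the highest and old replicate 2 within the young range, and it was 0.02 without old replicate 3. The regions from Hist1h2bl to Hist1h2bm (chr13:21714001-21723000) and from Hist1h4h to Hist1h3f (chr13:23529501-23544500) had log2 fold changes of 0.01 (SE 0.22) and 0.03 (SE 0.18), signs that turned negative with the deposited scaling. In the second group, the region from Hist1h2ah to Hist1h2bj (chr13:22034001-22045000) had -0.09 (SE 0.19). The last of them, over Hist1h4f and Hist1h1d (chr13:23549501-23558000) and over Hist1h1t and Hist1h4c (chr13:23696001-23702000), had -0.25 (SE 0.19) and -0.26 (SE 0.27). The first became -0.39 without old replicate 1 and -0.15 without old replicate 3, and the second became -0.05 without old replicate 1 and -0.48 without young replicate 2.

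**Figure D3:**
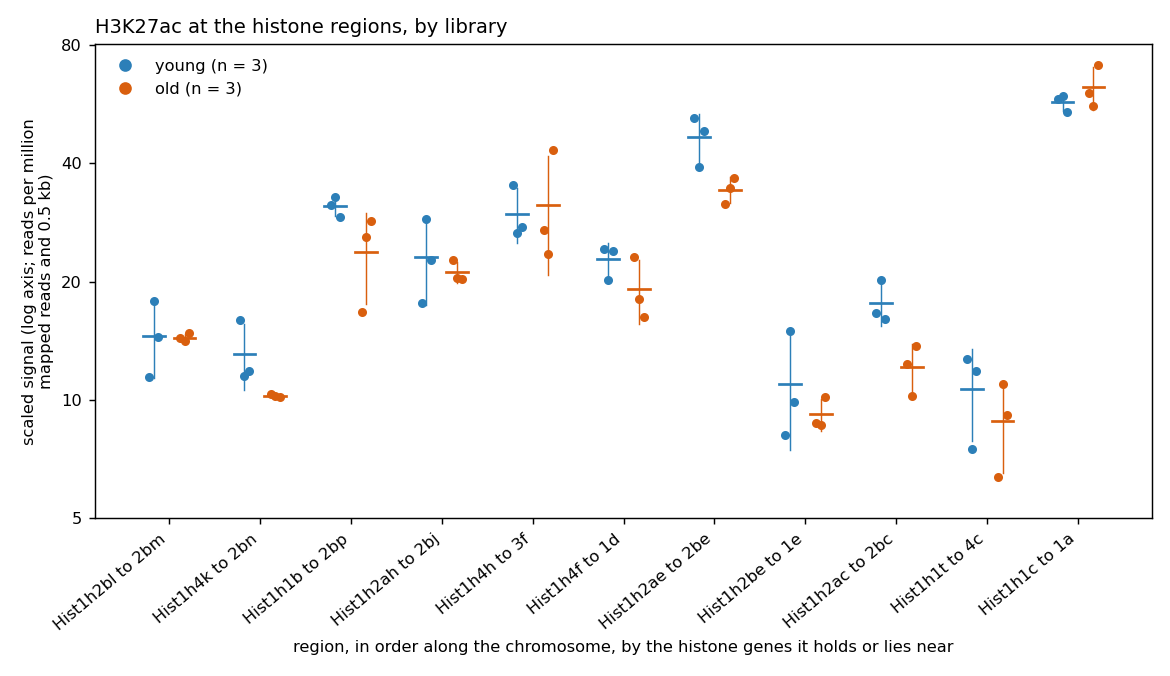
Scaled H3K27ac signal (log y axis, reads per 1000000 mapped reads and 0.5 kb) of the 11 regions (x axis, in chromosome order), with 1 point a library, bars for the mean and thin lines for the SD (n = 3). Old points lie below all young points in the regions from Hist1h4k, Hist1h1b, Hist1h2ae and Hist1h2ac, and the ages overlap in the other 7.

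All 11 H3K27ac regions overlapped a histone gene itself. The nearest region left out (chr13:23728501-23733000) ended 5.81 kb before Hist1h1c and had 14.8 ± 2.88 in young and 10.3 ± 0.986 in old cells (SD, n = 3). There too, every old library was below every young one. Of 22 other H3K27ac regions in and just beyond the span from Hist1h2bl to Hist1h2aa, 3 had this order and 2 the reverse. The order was therefore not particular to the histone regions. Summed over the 11 regions, 0.0145% ± 0.00164 of mapped reads in young and 0.0119% ± 0.00220 in old libraries lay in the locus (SD, n = 3), and the ages overlapped. Divided by the reads inside H3K27ac regions, which excludes reads outside any region, the shares were 0.0379% ± 0.000740 and 0.0333% ± 0.00322, and all old libraries lay below the young. The highest old library (replicate 3, 0.0369%) was only just below the lowest young library (replicate 3, 0.0372%). In the other histone clusters on chromosomes 3, 6 and 11 (Hist2h, Hist3h and Hist4h genes), 5 H3K27ac regions covered the starts of 13 of 14 genes, 0 of 5 passed the test, the ages overlapped in all 5, and their median log2 fold change was -0.04.

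H3K27me3 at the histone locus lay mostly between and beyond the genes whose starts H3K27ac covered. The only region over such starts was one that the deposited table lists for old cells alone. This region, over Hist1h4k, Hist1h2ak and Hist1h2bn (chr13:21740501-21755500, 15 kb), is 1 of 3 such regions in the H3K27me3 table, against 875 listed for young cells alone and 27169 for both. Its rise was known when the locus was chosen, so its values are a description. The scaled signal was 4.15, 8.05 and 4.45 in young and 28.4, 14.2 and 24.1 in old libraries. All old libraries were above all young ones, with old replicate 2, the shallowest, the lowest of them, and the means were 5.55 ± 2.17 and 22.2 ± 7.26 (SD, n = 3), a ratio of 4.01. These values rest on 21, 40 and 17 reads in young and 130, 25 and 76 reads in old libraries. Per length the region was among the weakest of its table (percentile 0.998 of all H3K27me3 regions, mean over the 6 libraries). That mean takes in the young libraries, where its signal was low, so the percentile does not give its level in old cells. Of its bases, 7.00 kb also lay in the H3K27ac region over the same genes, where the signal was lower in old libraries as given above. Of its 50-mers 93.2% were found at a single place in the genome, while Hist1h4k, Hist1h2ak and Hist1h2bn themselves were 28.5%, 54.2% and 14.96% unique, so the position of part of its reads is uncertain.

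The region just before it (chr13:21736001-21740500) ended where the old-cell region began and lay 164 bases after Hist1h4j, an H4 gene. Its scaled signal was 4.54, 3.42 and 6.54 in young and 8.73, 6.82 and 10.1 in old libraries. The lowest old library was only slightly above the highest young library, and the log2 fold change of 0.79 (SE 0.26) did not pass the test (limma, adjusted p = 0.153). It rested on 12 to 40 reads a library, and the level per length was near the median of its table (percentile 49.6). No H3K27ac region overlapped it. Leaving out each library in turn kept the log2 fold change between 0.59 and 1.01.

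In the table of H3K27me3 regions, 0.488% passed the test (137 of 28047, 23 of them higher in old). Of the 8 histone regions 1 passed, the one that was known, from which nothing is read, and 0 of the other 7 passed, with 1 of them at an unadjusted p under 0.05 (13.9% of all regions) and 0 called by edgeR (394 regions, or 1.4%, of the table). Leaving out the known region, all old libraries lay above all young in 1 of 7 (8.56% of all regions) and below them in 0 (10.6% of all). With the signal as deposited the known region alone kept this order (2.85% of all regions), and the median of all regions moved from -0.008 to -0.13. The median log2 fold change was -0.12 over the 8 regions, the known one included, and -0.008 over all regions.

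The longest H3K27me3 region (chr13:23765001-24007500, 242.5 kb) began where the H3K27ac region from Hist1h1c to Hist1h1a ended and held the testis pair Hist1h2ba and Hist1h2aa, with Trim38, the phosphate transporter genes Slc17a1 to Slc17a4 and Scgn. Its scaled signal was 577, 617 and 636 in young and 651, 636 and 595 in old libraries. The ages overlapped, and the log2 fold change of 0.04 (SE 0.07) turned to -0.08 with the deposited scaling. Per length it was at percentile 92.8 of all H3K27me3 regions, and with 1118 to 3069 reads a library it was the best measured region of the locus. The region over the pseudogene Hist1h2al (chr13:51167001-51208500) also covered Nxnl2 and was likewise even between ages, with 81.4 ± 2.37 in young and 75.2 ± 4.99 in old cells (SD, n = 3), and -0.11 on the log2 scale (SE 0.10).

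The remaining 4 H3K27me3 regions were smaller, and the ages overlapped in each. The region after Hist1h2bm (chr13:21725001-21732000) had 10.7 ± 0.517 in young and 9.83 ± 2.27 in old cells (SD, n = 3), and that beside Hist1h1e (chr13:23624501-23634500) had 26.9 ± 0.717 and 24.8 ± 4.42. The region beside Hist1h2bp (chr13:21790001-21792000) and the one within the long transcript of Hist1h2be (chr13:23602501-23605500) had log2 fold changes of -0.36 (SE 0.37) and -0.37 (SE 0.30). They held as few as 3 and 4 reads in old replicate 2, and without single libraries their changes ranged from -0.72 to -0.09 and from -0.57 to -0.11. Across the 7 regions other than the known one, adjusted p in limma ran from 0.153 to 0.855.

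**Figure D4:**
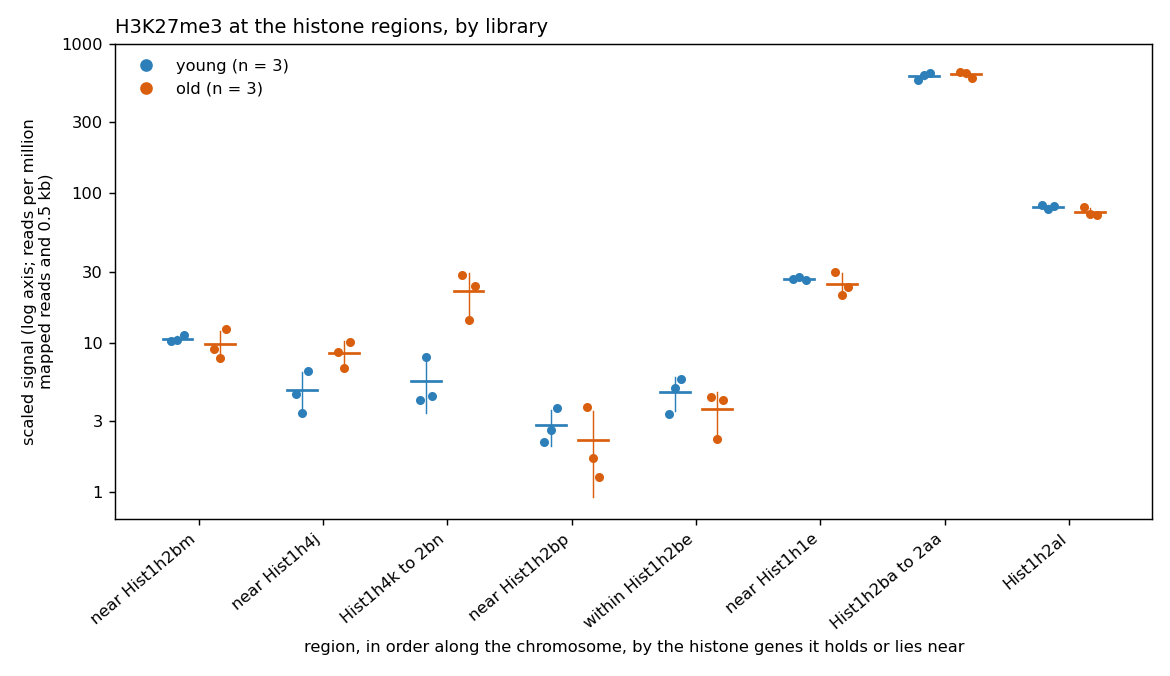
Scaled H3K27me3 signal (log y axis, reads per 1000000 mapped reads and 0.5 kb) of the 8 regions (x axis, in chromosome order), with 1 point a library, bars for the mean and thin lines for the SD (n = 3). Old points lie above young points at the region beside Hist1h4j and the region from Hist1h4k to Hist1h2bn, and the ages overlap in the other 6.

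The member just inside the limit of 5 kb was the region after Hist1h2bm, at 2.43 kb from the gene. The nearest H3K27me3 region left out (chr13:21688501-21708000) was 7.76 kb from Hist1h2bl, with 34.9 ± 0.327 in young and 39.2 ± 2.96 in old cells (SD, n = 3). Its old libraries all lay above the young. Of 15 other H3K27me3 regions in and just beyond the span from Hist1h2bl to Hist1h2aa, 1 had this order and 2 the reverse. Summed over the 8 regions, 0.0390% ± 0.00244 of mapped reads in young and 0.0371% ± 0.00301 in old libraries lay in the locus (SD, n = 3), and the ages overlapped. Divided by the reads inside H3K27me3 regions the order turned, with 0.0598% ± 0.00155 in young and 0.0640% ± 0.00203 in old libraries and no overlap. Both sums include the known region, whose rise chose the locus, so nothing is read from this order. The 242.5 kb region held most of the summed reads. In the other histone clusters, 1 H3K27me3 region covered the starts of the 3 Hist3h genes (chr11:58940501-58955000), with 85.0 ± 4.91 in young and 68.3 ± 5.62 in old cells (SD, n = 3), and did not pass the test (change of -0.31 on the log2 scale, SE 0.10, adjusted p = 0.149 in limma). It lay at percentile 99.9 per length, against 0.998 for the old-cell region of Hist1h4k. Both percentiles are from means over young and old libraries together, which lowers that of the old-cell region.

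**Figure D5:**
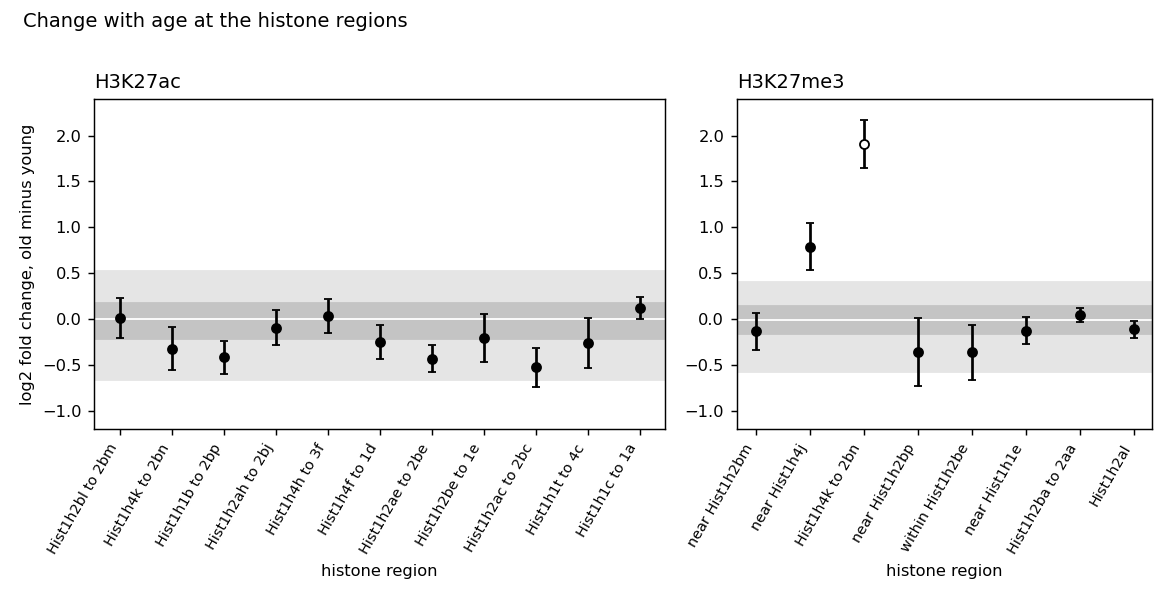
Log2 fold change of old over young (y axis, with SE) for the 11 H3K27ac and 8 H3K27me3 regions (x axis), over grey bands for the middle 50% (dark) and 90% (light) of all regions of each table. The H3K27ac points lie within the light band, and 2 H3K27me3 points lie above it, the open point being the region whose rise was known.

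Genes that act on this locus were compared by the regions over their starts. Of 18 genes for the transcription and 3′ processing of histone mRNA, among them Npat, which activates histone transcription, and Slbp, which binds the stem-loop, 18 had H3K27ac at the start, 0 regions passed the test, and the median log2 fold change was 0.07 (14 higher and 4 lower). The highest per length was over Srrt. Of 14 DNA replication genes, led by Cdt1, 14 had H3K27ac, 0 passed, and the median was 0.07 (11 higher and 3 lower). Over all 31617 H3K27ac regions, 15682 were higher and 15935 lower in old cells. Of 11 histone variant genes, led by H2afv, 11 had H3K27ac, 0 passed, and the median was -0.01 (5 higher and 6 lower). They included H2afx, which held the stem-loop sequence. H3K27me3 covered the start of 2 of these 43 genes, Coil and Sympk, and 0 of their regions passed the test.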

How the data were processed

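H3K27ac and H3K27me3 were measured by CUT&RUN in 12 libraries of mouse MSCs, grouped by mark and age from the labels. Per the submitters' processing notes, the authors used Bowtie2, Picard and the builds mm10 and GRCm38. Versions, the region caller and its parameters are not given in the sources used here. The authors deposited, for each region and library, a signal equal to reads per 1000000 mapped reads and per constant 0.5 kb, although the tables are named rpkm. All values (100%) were whole reads within 0.01 reads, so that reads and mapped totals were recovered. The signal was scaled by relative log expression size factors, and log2(scaled signal + 0.5) was tested by limma 3.58.1 (trend, robust, two-sided) over all regions of each table, with Benjamini-Hochberg adjustment at 0.05. Fold changes on this scale understate the change of weak regions. The script was tested on simulated data.

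Members, lists and tests were chosen with earlier results of these data known. Regions and start sites were matched to GENCODE vM21 basic. All member regions are named, and genes of other lists are named where they have the highest H3K27ac of their list or as examples chosen after their values were seen. Exact 50-mers were searched on both strands of GRCm38.p6. Sequences came from that genome and RefSeq. Alternatives were edgeR 4.0.16 and DESeq2 1.42.0 on recovered reads, other scalings, pseudocounts, filters, extensions and each library left out. Coding identity used Biopython 1.88.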

Additional observations from a re-analysis of the deposited data

How the results depend on the processing

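No H3K27ac histone region was called under any alternative that gave an adjusted p for all of them. The H3K27me3 region over Hist1h4k, Hist1h2ak and Hist1h2bn was called under each alternative that gave it an adjusted p, except limma without trend and robust moderation. There, 0 regions of the locus were called. The locus was chosen on the rise of this region, so its calls are a description from which nothing is read. DESeq2 gave 10 of the 11 H3K27ac and 6 of the 8 H3K27me3 regions, the known one included, no adjusted p. No count is therefore given for DESeq2, and the filter on weak regions removed 3 H3K27me3 regions. With the signal as deposited, the median log2 fold change of the H3K27ac regions moved from -0.25 to -0.37, the count of H3K27ac regions with old below young fell to 1, and that of H3K27me3 regions with old above young fell from 2 to 1, the known one. These orders were also counted after seeing the data without each library in turn, giving 4 to 6 of the H3K27ac regions (11.2% to 13.6% of all) and 2 to 3 of the H3K27me3 regions, the known one included (12.8% to 15.9% of all). With reads inside regions as the denominator, old minus young moved to -0.00465 percentage points for H3K27ac. It turned to 0.00415 for H3K27me3, where the sum includes the known region. Leaving out libraries gave -0.00386 to -0.00187 and -0.00340 to -0.000401, and medians of -0.34 to -0.18 (H3K27ac) and -0.13 to -0.008 (H3K27me3, the last without old replicate 2). The share of unique k-mers over all member regions of both marks was 93.4% for 36-mers and 98.0% for 100-mers, a sum that the 242.5 kb H3K27me3 region dominates. It was 88.6% and 94.2% over the H3K27ac regions, and 95.2% and 99.4% over the H3K27me3 regions. For single genes the medians were 46.4% and 69.7%, from 0% to 100% at both lengths.

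Signs turned in 6 regions, none called. With the deposited scaling the H3K27ac regions from Hist1h2bl and from Hist1h4h became -0.109 and -0.0845, and the H3K27me3 region of the testis pair became -0.0825. Leaving out libraries gave -0.153 to 0.158 (Hist1h2bl), -0.221 to 0.209 (Hist1h4h), -0.270 to 0.0775 (Hist1h2ah to Hist1h2bj), -0.390 to 0.0294 (Hist1h2be to Hist1h1e) and -0.299 to 0.00201 (H3K27me3 after Hist1h2bm). For the known H3K27me3 region of Hist1h4k it gave 1.71 to 2.20, again only a description. The H3K27ac region of Hist1h1t and Hist1h4c ran from -0.48 to -0.05 and the H3K27me3 region beside Hist1h1e from -0.26 to -0.02. The causes were not tested. Over whole tables, calls ranged from 0 to 105 for H3K27ac (26 in the report) and from 10 to 774 for H3K27me3 (137). Replicate numbers are shared by young and old labels, but same-numbered libraries did not deviate together (correlations -0.05 to 0.07 for H3K27ac and -0.08 to 0.04 for H3K27me3). The replicate block changed calls over the tables to 81 and 309 and left 0 and 1 histone regions called, with medians of -0.25 and -0.12.

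Depth limits the smaller regions, where 3 to 40 reads a library leave wide errors. No input or IgG library was used here, near-identical copies limit read placement inside genes, and the deposited values do not show where within a region the reads lie.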
